A study of Mus musculus with 11 samples.

Results

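Nuclear receptors are transcription factors whose activity is set by small lipid-soluble ligands such as steroid and thyroid hormones, retinoic acid, fatty acids, oxysterols and bile acids, or, for the orphan receptors, by their own abundance and partners. Most of them bind short half-sites of the AGGTCA type on DNA, many as pairs with a retinoid X receptor (RXR), and recruit coactivators or corepressors. In hepatocytes they are known for the control of lipid, bile acid, glucose and drug metabolism. The genes described here are those of the deposited table whose symbol follows the nuclear receptor nomenclature (*Nr0* to *Nr6* with a subgroup letter and a number) or is one of the classical names of the *Ppar*, *Rar*, *Rxr*, *Ror*, *Thr*, *Vdr*, *Esr* and *Esrr* families. The rule finds 44 of the 24849 genes of the table. One of them, *Nr2c2ap*, encodes a protein associated with a receptor and is not itself a receptor. The receptors *Hnf4a*, *Hnf4g* and *Pgr* carry other names and were followed separately, as were *Nr1i2* and *Nr1i3*, whose subgroup letter is outside the name rule.

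RNAseq was carried out on AML12 cells, a line of mouse hepatocytes, in 3 groups: 4 libraries of TXNDC5-deficient cells (KO 5, 6, 7 and 8), 3 of unmodified cells (WT 5-6, 7 and 8) and 4 of cells labelled as a knock-in of it (KI 5, 6, 7 and 8). TXNDC5 is a thioredoxin-like protein disulfide isomerase of the endoplasmic reticulum. The KO cells were made with CRISPR/Cas9 and a repair template with puromycin resistance, and puromycin-resistant cells were selected; the labels give their genotype as a knockdown. The methods speak of stable clones without their number. The KI cells carry the construct at the ROSA26 safe-harbour locus, and their genotype is given as a knockin, but neither their promoter nor their selection is given in the sources used here. The methods describe 1 culture medium for the line, and dexamethasone, a ligand of the glucocorticoid receptor, and insulin were among its supplements, so that differences in receptor levels were read in cells exposed to a synthetic glucocorticoid. Nothing in the labels says that libraries of a group came from separate cultures, so the p-values measure the spread between these libraries, which may be technical. In bulk RNA, fewer cells of a kind and less RNA per cell cannot be told apart.

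The libraries held between 29840366 and 38422243 counts. Levels are given as CPM, the share of a library's counts after scaling by edgeR's TMM factors over all 11 libraries, listed in the order KO 5, 6, 7 and 8, WT 5-6, 7 and 8, and KI 5, 6, 7 and 8. Fold changes are on the log2 scale, ± their standard error, from fits of the 2 groups compared, p-values come from the quasi-likelihood test of edgeR and were adjusted by Benjamini-Hochberg over all genes tested, and a gene was called when its adjusted p-value was under 0.05. *Txndc5*, the targeted gene, had 10.2, 8.5, 12.9 and 9.39 CPM in the KO, 147, 138 and 143 in the WT and 158, 180, 176 and 163 in the KI libraries. The KO libraries were far below the others, with -3.81 ± 0.15 (adjusted p = 4.09e-08, edgeR) against the WT. All KI libraries were above all WT libraries, but the difference was small and not called, with 0.24 ± 0.12 (adjusted p = 0.136, edgeR). Scaled by library totals instead, it was 0.57 and called (adjusted p = 0.00623, edgeR). The species and the coding sequence of the knock-in construct are not given in the sources used here, so whether its transcript is counted on the mouse gene is unknown, and KI stands for the label. Library WT 8 lay apart from the other WT libraries for several receptors, and values without it are given where its absence changed the call of a receptor gene.

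Of the 44 genes, 37 reached 10 counts in at least 1 library. *Esr2*, *Nr0b1*, *Nr4a3* and *Rxrg* had 0 counts in all 11 libraries, and *Nr1h5*, *Nr2e1* and *Nr2e3* stayed under 10 counts in each, too few to detect a difference. Against its own length (CPM per kilobase of annotated exons), *Nr1h4*, which encodes the bile acid receptor FXR, had the highest level in every group, with 129 in the WT, 72.9 in the KO and 103 in the KI cells. It was followed in the WT cells by *Esrra* with 37, *Nr2f6* with 35.7, *Nr1h2* with 21.9 and *Nr3c1* with 14.9 CPM per kilobase. The levels of *Esrra* and *Nr2f6* did not differ beyond their spread in the WT libraries. In the KO cells, the order after *Nr1h4* was *Nr2f6* with 36.6, *Nr1h2* with 26.4, *Esrra* with 19.5 and *Nr1h3* with 15.5 CPM per kilobase. The plot of levels by library shows 33 of the 34 genes tested in at least 1 comparison.

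**Figure D1:**
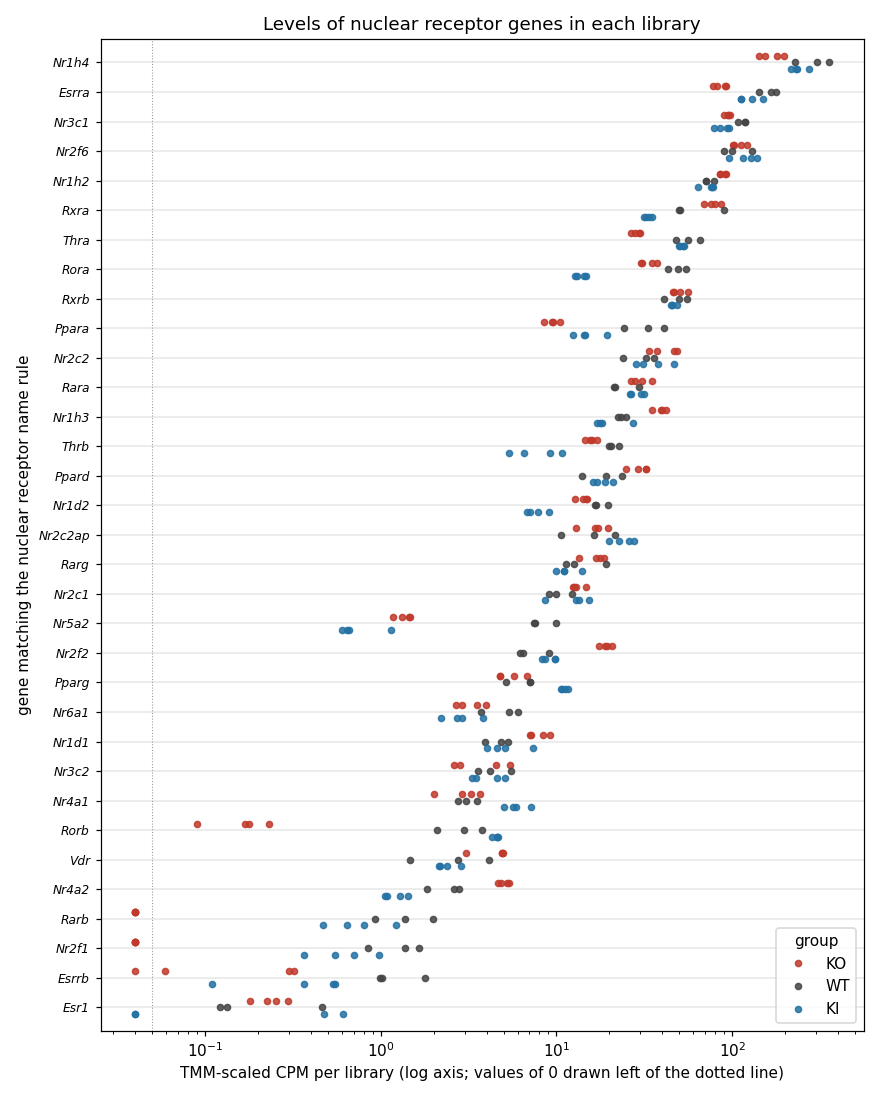
TMM-scaled CPM of each library (points, log axis) for 33 of the 34 genes tested, ordered by their WT mean, with KO in red, WT in grey and KI in blue. The 4 KO points of *Rarb* and *Nr2f1* lie at 0, left of the dotted line, and those of *Rorb* lie between 0.09 and 0.23 CPM, under all WT points.

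Between the KO and WT cells, 18 of the 33 receptor genes tested were called, 5 higher and 13 lower in the KO cells. This is 54.5% of those tested, close to the 55.1% called among all 13359 genes tested, of which 26.7% were higher and 28.4% lower. The median log2 fold change was -0.10 for the receptor genes and -0.03 for all genes. The groups did not overlap for 20 of the 33 receptor genes, against 55.3% of all genes, and 9 of the 33 were called with an absolute log2 fold change over 1, against 25.4% of all genes. The split of this count depended on the scaling. Library totals move the median of all genes to 0.38, and with them 13 receptor genes were called higher and 9 lower. The calls of all genes shifted as well. With library totals, 59.1% of the receptor genes called and 72.8% of all genes called were higher, against 27.8% and 48.5% with TMM. Without WT 8, 12 receptor genes were called higher, and the share of all genes called higher was not computed for that fit.

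Between the KI and WT cells, 13 of 34 receptor genes were called, 3 higher and 10 lower, which is 38.2% against 42.3% of all 13534 genes (21.2% higher and 21% lower). The groups did not overlap for 12 of the 34 receptor genes, against 44.7% of all genes. With library totals, which move the median of all genes to 0.30, 6 were called higher and 5 lower. Of the receptor genes called, 54.5% were then higher, and of all genes called 76.3%, against 23.1% and 50.2% with TMM. Without WT 7, and likewise without KI 6, 8 were called, 6 of them lower. Between the KO and KI cells, 22 of 33 were called, 12 higher and 10 lower in the KO cells, or 66.7% against 54% of all 13269 genes (27% higher and 27% lower), and this split was the same with library totals. The groups did not overlap for 21 of the 33 receptor genes, against 48.6% of all genes. The KO and KI comparisons share the WT libraries, so the 2 sets of calls are not independent. Side by side, 7 genes were called lower in both (*Esrrb*, *Nr3c1*, *Nr5a2*, *Nr6a1*, *Ppara*, *Rora* and *Thrb*), and 6 were called lower in the KO cells alone (*Esrra*, *Nr1h4*, *Nr2f1*, *Rarb*, *Rorb* and *Thra*). Another 4 were called higher in the KO cells alone (*Nr1d1*, *Nr1h3*, *Nr2f2* and *Ppard*), 3 higher in the KI cells alone (*Nr2c2ap*, *Nr4a1* and *Pparg*) and 2 lower in the KI cells alone (*Nr1d2* and *Rxra*). *Nr4a2* was called higher in the KO and lower in the KI cells. The share of all genes with each of these patterns was not computed, so whether the counts of receptor genes are unusual is unknown. Such counts do not show that the groups differ for a gene, which the direct comparison of KO and KI cells tests.

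**Figure D2:**
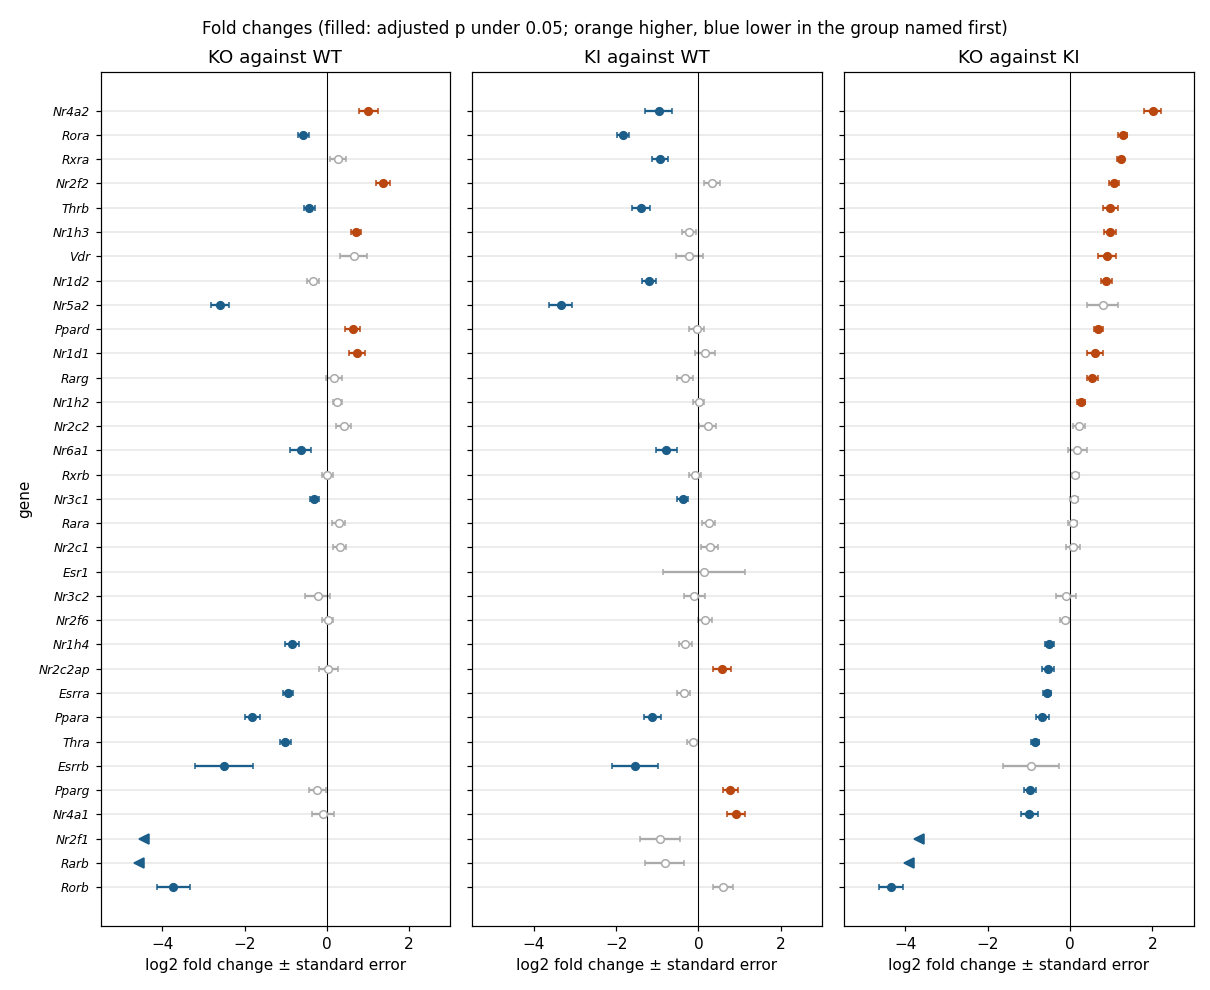
Log2 fold change with its standard error for 33 of the receptor genes tested, in KO against WT, KI against WT and KO against KI, where filled points passed an adjusted p-value of 0.05 (orange higher, blue lower in the group named first) and triangles mark fitted values against a KO group at 0, which are no bounds. *Nr4a2* lies at 1.01, -0.97 and 2.01, and *Nr5a2* lies far to the left in both comparisons with the WT.

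The retinoic acid receptors are the ligand-activated partners of RXR, and *Rarb* is a known target of retinoic acid itself. *Rarb* had 0 counts in every KO library, whereas it had 1.38, 1.98 and 0.921 CPM in the WT and 0.643, 0.799, 0.47 and 1.22 CPM in the KI libraries. The level was low in all groups, and the KO group did not overlap with either of the others. Taking 3 counts per library as the floor, it was at least 17.2-fold lower than in the WT (adjusted p = 0.000235, edgeR) and at least 9.43-fold lower than in the KI cells (adjusted p = 8.03e-05, edgeR). Between KI and WT cells the log2 fold change was -0.82 ± 0.47 (adjusted p = 0.176, edgeR), not called, and the groups overlapped. In the reference annotation, 34.1% of the exon length of *Rarb* lies opposite exons of *Top2b*, and the library preparation described does not mark the strand, so reads from that stretch cannot be assigned by strand.

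*Rara* and *Rarg*, the other retinoic acid receptors, were present in all groups. *Rara* had 26.6, 27.9, 30.5 and 35 CPM in the KO, 21.2, 21.6 and 29.5 in the WT and 26.2, 30.4, 31.4 and 26.5 in the KI libraries. The groups overlapped, with 0.29 ± 0.16 (adjusted p = 0.139, edgeR) in KO against WT and 0.25 ± 0.16 (adjusted p = 0.233, edgeR) in KI against WT, neither called. Without WT 8, these were 0.49 (adjusted p = 0.00984, edgeR) and 0.42 (adjusted p = 0.0239, edgeR). *Rarg* had 13.5, 17.6, 16.7 and 18.6 CPM in the KO, 11.4, 12.6 and 19.2 in the WT and 9.93, 13.9, 11 and 11.1 in the KI libraries. It was not called against the WT (0.18 ± 0.20 (adjusted p = 0.46, edgeR) in the KO and -0.33 ± 0.20 (adjusted p = 0.206, edgeR) in the KI cells), but was higher in the KO than in the KI cells, with 0.54 ± 0.14 (adjusted p = 0.00453, edgeR). Without WT 8 the KO value against the WT was 0.47 (adjusted p = 0.029, edgeR).

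*Rxra*, the main RXR of the liver and the shared partner of many receptors, separated KO from KI cells. *Rxra* had 68.7, 76.2, 86.4 and 79.5 CPM in the KO, 49.8, 50.5 and 89.8 in the WT and 33.5, 31.5, 35 and 32.4 in the KI libraries. No KO library overlapped with a KI library, and WT 8 lay just above the KO libraries while WT 5-6 and WT 7 lay between the groups. The KO cells were higher than the KI cells by 1.23 ± 0.09 (adjusted p = 3.71e-08, edgeR). Against the WT, the KI cells were lower, with -0.94 ± 0.19 (adjusted p = 0.00194, edgeR), a call that was lost with library totals (-0.65, adjusted p = 0.0511, edgeR). The KO cells were not called against the WT, with 0.27 ± 0.20 (adjusted p = 0.261, edgeR), but without WT 8 the value was 0.64 (adjusted p = 0.000552, edgeR). *Rxrb*, the ubiquitous RXR, had between 40.9 and 56 CPM in the 11 libraries, with 0.01 ± 0.14 (adjusted p = 0.934, edgeR) in KO against WT, -0.08 ± 0.14 (adjusted p = 0.676, edgeR) in KI against WT and 0.12 ± 0.09 (adjusted p = 0.289, edgeR) in KO against KI. None was called, and the same held for each of the 4 table entries summed under this name. With library totals, *Rxrb* was called higher in KO against WT (0.44, adjusted p = 0.013, edgeR).

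The stretch around the start site is shown for 4 receptors whose levels carried the comparisons: *Rarb*, at 0 in the KO cells, *Nr5a2*, low in KO and KI cells, *Nr4a2*, called in opposite directions, and *Nr1h4*, the most abundant per kilobase. The windows run from 250 bases before to 50 bases after the start site, from RefSeq on GRCm38.p6, 5′ to 3′ on the strand of the gene, which is the minus strand for all 4, and the first listed start site was used. Capitals mark the half-site AGGTCA, its variant letters AGTTCA or, as another variant, GGTTCA and also a direct repeat, 2 copies of GTTCA with 6 bases between them, all searched on both strands. The repeat overlaps with the last 2 half-sites. They are *Rarb* at chr14:16575427-16575726, *Nr5a2* at chr1:136960399-136960698, *Nr4a2* at chr2:57123954-57124253 and *Nr1h4* at chr10:89506609-89506908.
Rarb: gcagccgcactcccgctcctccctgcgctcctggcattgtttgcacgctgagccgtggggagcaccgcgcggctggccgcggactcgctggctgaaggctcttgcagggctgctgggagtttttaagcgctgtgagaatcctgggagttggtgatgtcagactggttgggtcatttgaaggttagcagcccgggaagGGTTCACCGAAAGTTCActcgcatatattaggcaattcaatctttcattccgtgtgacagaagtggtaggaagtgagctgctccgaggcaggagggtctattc
Nr5a2: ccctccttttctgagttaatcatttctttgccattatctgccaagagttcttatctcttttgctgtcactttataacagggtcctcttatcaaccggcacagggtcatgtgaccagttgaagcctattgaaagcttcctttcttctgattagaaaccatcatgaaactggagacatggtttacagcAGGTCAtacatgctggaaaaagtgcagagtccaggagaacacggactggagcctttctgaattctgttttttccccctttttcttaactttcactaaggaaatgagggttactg
Nr4a2: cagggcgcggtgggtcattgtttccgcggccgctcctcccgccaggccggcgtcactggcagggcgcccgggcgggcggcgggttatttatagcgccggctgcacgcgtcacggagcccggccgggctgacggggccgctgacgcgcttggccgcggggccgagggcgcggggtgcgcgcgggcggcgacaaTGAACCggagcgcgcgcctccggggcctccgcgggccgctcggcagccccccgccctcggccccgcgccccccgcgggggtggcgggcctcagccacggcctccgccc
Nr1h4: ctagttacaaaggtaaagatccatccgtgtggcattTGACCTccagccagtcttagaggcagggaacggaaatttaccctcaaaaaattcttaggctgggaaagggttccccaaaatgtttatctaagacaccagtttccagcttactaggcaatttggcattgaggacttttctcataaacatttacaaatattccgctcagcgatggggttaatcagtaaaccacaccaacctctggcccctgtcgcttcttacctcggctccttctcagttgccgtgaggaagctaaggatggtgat

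The direct repeat, spaced as in a known type of retinoic acid response element, begins 52 bases before the start site of *Rarb*. It occurs in 25 of all 32851 promoter windows (0.0761%) and, among the 60 windows of receptor genes, only in this one. The repeat and the variants GGTTCA and AGTTCA have the letters of this stretch of *Rarb*, so their match there was fixed in advance. The counts describe how common the letters are and are no result about *Rarb*. The half-site AGGTCA occurs in 16.3% of all windows and in 20% of those of receptor genes, *Nr5a2* and, on the opposite strand, *Nr1h4* among them. AGTTCA is in 14% of all windows and 16.7% of those of receptor genes, and GGTTCA in 10.4% and 10%. Promoters were matched for 40 of the 44 genes, and *Nr3c1*, *Nr5a1* and *Thra* were among those without an entry. A match describes the letters and is no measurement of binding.

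The COUP transcription factors are orphan receptors that often act as repressors. *Nr2f1* (COUP-TFI) had 0 counts in all KO libraries, 0.847, 1.65 and 1.38 CPM in the WT and 0.364, 0.551, 0.706 and 0.973 CPM in the KI libraries. As for *Rarb*, the KO group did not overlap with the others. It was at least 15.6-fold lower in KO than in WT cells (adjusted p = 0.000258, edgeR) and at least 7.81-fold lower than in KI cells (adjusted p = 0.000146, edgeR), whereas KI against WT gave -0.94 ± 0.48 (adjusted p = 0.13, edgeR), not called. Its close paralog *Nr2f2* (COUP-TFII) went the other way. *Nr2f2* had 17.5, 19.5, 18.8 and 20.7 CPM in the KO, 6.46, 6.21 and 9.03 in the WT and 9.82, 8.3, 9.85 and 8.61 in the KI libraries. All KO libraries were above all others, with 1.37 ± 0.17 (adjusted p = 6.77e-05, edgeR) against the WT and 1.06 ± 0.12 (adjusted p = 2.87e-06, edgeR) against the KI cells. The KI value against the WT was 0.33 ± 0.19 (adjusted p = 0.171, edgeR), not called, and 0.52 without WT 8 (adjusted p = 0.0306, edgeR). *Nr2f2* lies on chromosome 7, whose tested genes had a median log2 fold change of 0.53 in KO against WT and 0.43 in KO against KI, and the part of this in the result was not tested. *Nr2f6*, the third member, had between 90.4 and 139 CPM in the 11 libraries and was not called in any comparison, with 0.02 ± 0.14 (adjusted p = 0.923, edgeR) in KO against WT and 0.17 ± 0.17 (adjusted p = 0.444, edgeR) in KI against WT. With library totals it was called higher in both, with 0.45 (adjusted p = 0.0103, edgeR) in KO against WT and 0.51 (adjusted p = 0.019, edgeR) in KI against WT. In the annotation, 54.4% of its exon length lies opposite exons of *Ocel1*.

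The ROR receptors activate and the REV-ERB receptors repress genes of the circadian clock through the same sites. *Rorb*, best known from the nervous system and retina, was nearly absent from the KO cells. *Rorb* had 0.168, 0.178, 0.09 and 0.23 CPM in the KO, 2.1, 2.99 and 3.79 in the WT and 4.56, 4.6, 4.65 and 4.32 in the KI libraries. The 3 groups did not overlap. The fall in KO cells was -3.73 ± 0.41 (adjusted p = 3.19e-05, edgeR) against the WT and -4.35 ± 0.29 (adjusted p = 1.05e-08, edgeR) against the KI cells. The KI cells were not called against the WT, with 0.60 ± 0.25 (adjusted p = 0.0679, edgeR), but were without WT 8 (0.82, adjusted p = 0.0181, edgeR). *Rora*, a ROR receptor also known from the liver, was lowest in the KI cells. *Rora* had 30.6, 30.4, 37.4 and 35.1 CPM in the KO, 43.2, 49.1 and 54.5 in the WT and 12.8, 13.1, 14.8 and 14.3 in the KI libraries. Again no groups overlapped, with KI under KO and KO under WT libraries. The log2 fold changes were -1.83 ± 0.14 (adjusted p = 1.89e-06, edgeR) for KI against WT, -0.57 ± 0.13 (adjusted p = 0.00414, edgeR) for KO against WT and 1.28 ± 0.11 (adjusted p = 1.49e-07, edgeR) for KO against KI. The KO call against the WT was lost with library totals (-0.17, adjusted p = 0.438, edgeR).

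*Nr1d1* (REV-ERBα) was highest in the KO cells. *Nr1d1* had 7.07, 8.41, 7.17 and 9.16 CPM in the KO, 3.92, 5.29 and 4.85 in the WT and 7.36, 5.07, 4.6 and 4.01 in the KI libraries. The KO libraries were above the WT libraries, whereas KI 5 lay among them. The log2 fold changes were 0.73 ± 0.19 (adjusted p = 0.00802, edgeR) against the WT and 0.60 ± 0.19 (adjusted p = 0.0148, edgeR) against the KI cells, with 0.16 ± 0.25 (adjusted p = 0.628, edgeR) in KI against WT, not called. *Nr1d2* (REV-ERBβ) did not follow it. *Nr1d2* had 12.8, 14.7, 14.9 and 14.1 CPM in the KO, 16.7, 19.7 and 16.5 in the WT and 7.1, 6.81, 7.81 and 9.03 in the KI libraries. The KI libraries were under all others, by -1.19 ± 0.17 (adjusted p = 0.000133, edgeR) against the WT, and the KO libraries were above the KI libraries by 0.88 ± 0.13 (adjusted p = 5.34e-05, edgeR). The KO value against the WT was -0.34 ± 0.14 (adjusted p = 0.0609, edgeR), not called, and had the opposite sign with library totals (0.08, adjusted p = 0.716, edgeR).

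**Figure D3:**
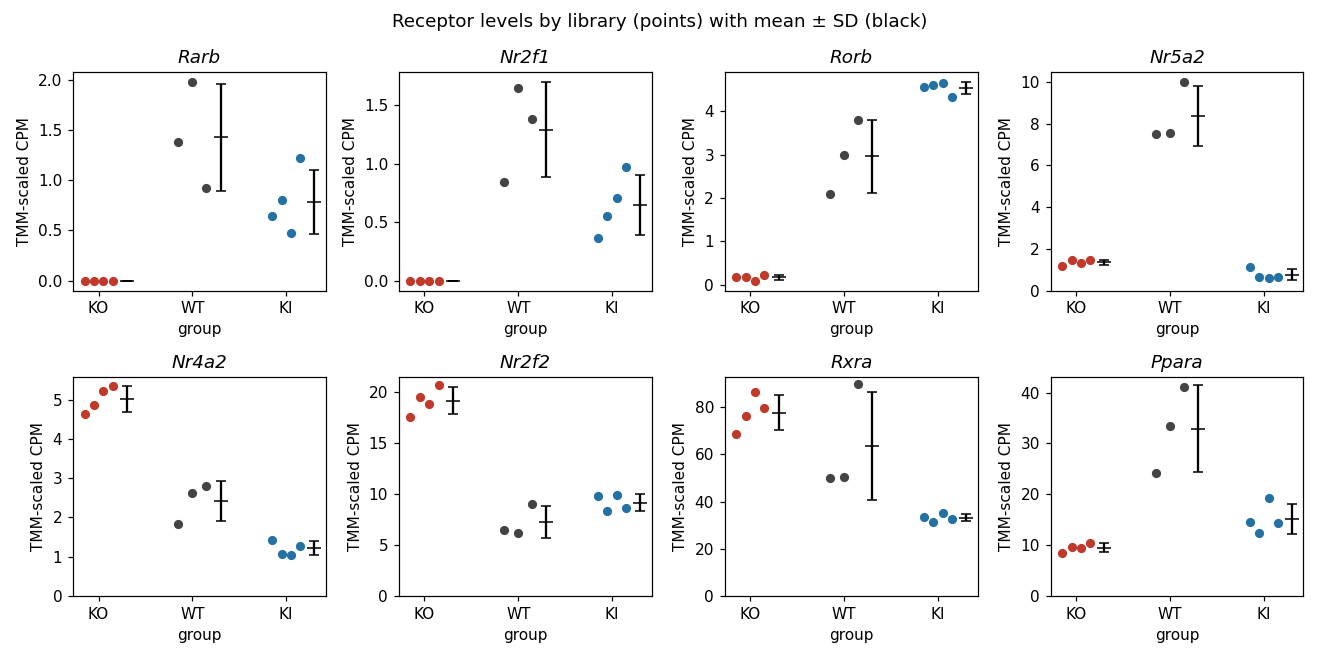
TMM-scaled CPM by library (points) with the group mean and SD (black) for 8 receptors, on linear axes that differ between panels. *Rarb*, *Nr2f1* and *Rorb* are at or near 0 in the KO cells, *Nr5a2* is low in KO and KI cells, and the WT 8 point of *Rxra* (89.8 CPM) lies just above the KO points.

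The PPAR receptors sense fatty acids. *Ppara*, the receptor that drives fatty acid oxidation in the liver, was lower in both modified lines. *Ppara* had 8.44, 9.59, 9.48 and 10.5 CPM in the KO, 24.1, 33.4 and 41.1 in the WT and 14.5, 12.4, 19.3 and 14.4 in the KI libraries. The 3 groups did not overlap. It fell by 1.81 on the log2 scale in the KO cells (standard error 0.18, adjusted p = 1.64e-05, edgeR) and fell by 1.12 in the KI cells (standard error 0.20, adjusted p = 0.000813, edgeR), and KO against KI gave -0.67 ± 0.15 (adjusted p = 0.0014, edgeR). *Ppard*, expressed in most tissues, was highest in the KO cells. *Ppard* had 24.8, 32.4, 29 and 32.3 CPM in the KO, 19.2, 14 and 23.5 in the WT and 21.1, 17, 19 and 16.2 in the KI libraries. Each KO library was above all others, with 0.63 ± 0.18 (adjusted p = 0.0117, edgeR) against the WT and 0.69 ± 0.12 (adjusted p = 0.000194, edgeR) against the KI cells. The first call was lost without WT 7 (0.48, adjusted p = 0.0506, edgeR), and KI against WT gave -0.04 ± 0.18 (adjusted p = 0.881, edgeR), not called. Its 2 table entries gave 0.55 (adjusted p = 0.011, edgeR) and 0.71 (adjusted p = 0.0566, edgeR) in KO against WT. *Pparg*, the receptor of fat cell formation, was highest in the KI cells. *Pparg* had 4.74, 4.8, 5.76 and 6.83 CPM in the KO, 7.09, 7.06 and 5.13 in the WT and 11.2, 11.6, 10.7 and 10.6 in the KI libraries. All KI libraries were above the others, by 0.77 ± 0.18 (adjusted p = 0.0042, edgeR) against the WT, and the KO cells were lower than the KI cells, with -0.98 ± 0.15 (adjusted p = 5.41e-05, edgeR). KO and WT libraries overlapped, with -0.23 ± 0.21 (adjusted p = 0.376, edgeR), not called.

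The LXR receptors sense oxysterols and FXR senses bile acids. *Nr1h3* (LXRα) was highest in the KO cells. *Nr1h3* had 42, 40, 39.3 and 35 CPM in the KO, 25, 23.4 and 22.4 in the WT and 17.8, 18.1, 17 and 27.4 in the KI libraries. All KO libraries were above all others, with 0.71 ± 0.12 (adjusted p = 0.000676, edgeR) against the WT and 0.97 ± 0.14 (adjusted p = 3.61e-05, edgeR) against the KI cells. KI against WT gave -0.23 ± 0.18 (adjusted p = 0.309, edgeR), not called, and -0.42 without KI 8 (adjusted p = 0.0416, edgeR). *Nr1h2* (LXRβ) varied less. *Nr1h2* had 92, 85.8, 85.1 and 90.7 CPM in the KO, 78.6, 70.8 and 71.1 in the WT and 64, 78, 76.3 and 76.1 in the KI libraries. Again, the KO libraries were above the rest. It was called against the KI cells, with 0.27 ± 0.09 (adjusted p = 0.0175, edgeR), a call lost without KI 5 (0.20, adjusted p = 0.0731, edgeR), and not called against the WT, with 0.25 ± 0.11 (adjusted p = 0.0733, edgeR). The latter was called without WT 5-6 (0.32, adjusted p = 0.0399, edgeR) and without WT 8 (0.25, adjusted p = 0.0494, edgeR). *Nr1h2* lies on chromosome 7 like *Nr2f2*, and relative to the median of that chromosome its values were -0.28 in KO against WT and -0.17 in KO against KI, the opposite direction. In KI against WT it was 0.0016 ± 0.13 (adjusted p = 0.994, edgeR). *Nr1h4* (FXR) was lowest in the KO cells. *Nr1h4* had 198, 153, 179 and 142 CPM in the KO, 355, 305 and 229 in the WT and 231, 234, 215 and 272 in the KI libraries. All KO libraries were under all others, with -0.84 ± 0.17 (adjusted p = 0.00168, edgeR) against the WT and -0.50 ± 0.11 (adjusted p = 0.00127, edgeR) against the KI cells. KI against WT gave -0.32 ± 0.16 (adjusted p = 0.134, edgeR), not called, and -0.47 without WT 8 (adjusted p = 0.00783, edgeR). *Nr0b2* (SHP), the target and feedback partner of FXR that lacks a DNA-binding domain, had between 0 and 14 counts per library and was not tested.

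The thyroid hormone receptors were both lower in KO cells. *Thra* had 29.6, 26.7, 28.1 and 29.7 CPM in the KO, 56, 47.7 and 66 in the WT and 49.8, 53.2, 52.3 and 50.6 in the KI libraries. None of the KO libraries reached the others, with -1.01 ± 0.13 (adjusted p = 9.76e-05, edgeR) against the WT and -0.85 ± 0.09 (adjusted p = 9.1e-07, edgeR) against the KI cells, while KI against WT gave -0.14 ± 0.14 (adjusted p = 0.449, edgeR), not called. *Thra* lies on chromosome 11, whose tested genes had a median of -0.34 in KO against WT and -0.27 in KO against KI, and the part of this in the result was not tested. Its last exons meet those of *Nr1d1* on the opposite strand, over 5.7% of the exon length of *Thra* and 8.55% of that of *Nr1d1*. *Thrb*, the main thyroid hormone receptor of the liver, was lowest in the KI cells. *Thrb* had 16, 14.5, 15.6 and 17 CPM in the KO, 20.5, 19.8 and 22.7 in the WT and 9.17, 6.56, 10.8 and 5.38 in the KI libraries. No groups overlapped. KI against WT was -1.39 ± 0.22 (adjusted p = 0.000331, edgeR) and KO against KI was 0.98 ± 0.18 (adjusted p = 0.000382, edgeR). The smaller difference of KO against WT, -0.43 ± 0.13 (adjusted p = 0.0153, edgeR), was lost with library totals (-0.03, adjusted p = 0.895, edgeR) and without KO 6 (-0.40, adjusted p = 0.0532, edgeR). In 1 fit of all libraries it was also not called (-0.41, adjusted p = 0.0769, edgeR). The tested genes of chromosome 14, which holds *Thrb*, had a median of -0.36 in this comparison, and the part of this in the result was not tested. *Vdr*, the vitamin D receptor, is known to be low in hepatocytes. *Vdr* had 3.06, 4.92, 4.89 and 4.99 CPM in the KO, 1.47, 2.74 and 4.11 in the WT and 2.38, 2.87, 2.14 and 2.16 in the KI libraries. It was called only between KO and KI cells, with 0.89 ± 0.22 (adjusted p = 0.00304, edgeR). In KO against WT it was 0.65 ± 0.33 (adjusted p = 0.121, edgeR), not called, and 1.06 without WT 8 (adjusted p = 0.0144, edgeR), and in KI against WT it was -0.22 ± 0.33 (adjusted p = 0.625, edgeR).

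*Nr3c1*, the glucocorticoid receptor, was the most abundant steroid receptor per kilobase of exons in these cells. *Nr3c1* had 95.1, 89.6, 96.7 and 95 CPM in the KO, 108, 118 and 118 in the WT and 93.6, 79.1, 95.4 and 85.1 in the KI libraries. All WT libraries were above all KO and KI libraries, but by little. The log2 fold changes were -0.31 ± 0.11 (adjusted p = 0.0312, edgeR) in the KO and -0.38 ± 0.13 (adjusted p = 0.0311, edgeR) in the KI cells. Both calls were lost with library totals, under which the KO value was 0.10 (adjusted p = 0.535, edgeR) and the KI value -0.05 (adjusted p = 0.818, edgeR), and leaving out 1 library ended the KO call in 5 of 7 fits (each KO library and WT 7) and the KI call in 4 of 7 (WT 7, KI 5, KI 6 and KI 8). The tested genes of its chromosome had a median of -0.32 in KO against WT, which leaves 0.02 for *Nr3c1* relative to it, and the part of this in the result was not tested. KO against KI was 0.10 ± 0.09 (adjusted p = 0.369, edgeR), not called. *Nr3c2*, the mineralocorticoid receptor, had between 2.61 and 5.52 CPM and was not called, with -0.22 ± 0.30 (adjusted p = 0.562, edgeR) in KO against WT, -0.10 ± 0.25 (adjusted p = 0.782, edgeR) in KI against WT and -0.10 ± 0.25 (adjusted p = 0.772, edgeR) in KO against KI. *Esr1*, the oestrogen receptor, had at most 0.607 CPM and was tested in KI against WT alone, with 0.13 ± 0.99 (adjusted p = 0.929, edgeR).

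The oestrogen-related receptors are orphan receptors of energy metabolism. *Esrra*, the most abundant of them per kilobase, was lower in the KO cells. *Esrra* had 91.7, 82.4, 90.7 and 77.9 CPM in the KO, 178, 166 and 143 in the WT and 112, 130, 113 and 150 in the KI libraries. Each KO library was under all others, with -0.94 ± 0.12 (adjusted p = 9.16e-05, edgeR) against the WT and -0.56 ± 0.10 (adjusted p = 0.000311, edgeR) against the KI cells. KI against WT was -0.36 ± 0.15 (adjusted p = 0.0615, edgeR), not called, -0.44 without WT 8 (adjusted p = 0.0143, edgeR) and -0.45 without KI 8 (adjusted p = 0.0293, edgeR). The tested genes of the chromosome of *Esrra* had a median of -0.33 in KO against WT and -0.10 in KO against KI. The part of this in the result was not tested. *Esrrb*, known from embryonic stem cells, was near the floor. *Esrrb* had 0, 0.0592, 0.3 and 0.322 CPM in the KO, 1.78, 1.01 and 0.991 in the WT and 0.531, 0.11, 0.549 and 0.365 in the KI libraries. It was highest in the WT libraries, with -2.50 ± 0.71 (adjusted p = 0.0113, edgeR) for the KO and -1.54 ± 0.55 (adjusted p = 0.0378, edgeR) for the KI cells, and KO against KI was -0.96 ± 0.68 (adjusted p = 0.251, edgeR), not called. The KO call was lost without WT 5-6 (-2.19, adjusted p = 0.0564, edgeR), and the KI call without any 1 of 4 libraries (WT 5-6, WT 7, KI 6 and KI 8). With library totals, the KI value was also not called (-1.21, adjusted p = 0.0899, edgeR), nor was it without the low-count filter (adjusted p = 0.0503, edgeR) or in 1 fit of all libraries (adjusted p = 0.101, edgeR). *Esrrg* had at most 25 counts in a library and was not tested.

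*Nr5a2* (LRH-1), a receptor of bile acid and cholesterol metabolism, was lower in both modified lines by more than any other receptor called in both. *Nr5a2* had 1.18, 1.45, 1.32 and 1.47 CPM in the KO, 7.49, 7.55 and 10 in the WT and 1.15, 0.662, 0.601 and 0.639 in the KI libraries. Every KO and KI library was under every WT library. It fell by 2.59 on the log2 scale in the KO cells (standard error 0.22, adjusted p = 4.72e-06, edgeR) and fell by 3.35 in the KI cells (standard error 0.28, adjusted p = 3.29e-06, edgeR). The KO libraries were above the KI libraries, but the difference was not called, with 0.79 ± 0.37 (adjusted p = 0.0818, edgeR), and was 1.04 without KI 5 (adjusted p = 0.0413, edgeR). Its paralog *Nr5a1* (SF-1), the receptor of steroid-producing glands, was too low to test, with 21, 7 and 5 counts in the WT libraries, 2 in KO 5, 2 in KI 8 and 0 in the other 6 libraries. *Nr6a1* (GCNF), a germ cell receptor, was also called lower in both. *Nr6a1* had 2.69, 3.52, 2.88 and 3.98 CPM in the KO, 3.74, 6.01 and 5.35 in the WT and 2.21, 2.7, 2.9 and 3.83 in the KI libraries. Here WT 5-6 overlapped with both other groups. The values were -0.64 ± 0.25 (adjusted p = 0.0475, edgeR) in the KO and -0.78 ± 0.26 (adjusted p = 0.0294, edgeR) in the KI cells, both calls were lost with library totals (-0.24 and -0.47), and leaving out 1 library ended the KO call in 5 of 7 fits (KO 5, KO 6, KO 7, WT 7 and WT 8) and the KI call in 5 of 7 (WT 7, WT 8, KI 5, KI 6 and KI 7). Without WT 8 they were -0.56 (adjusted p = 0.0983, edgeR) and -0.74 (adjusted p = 0.0517, edgeR). KO against KI was 0.17 ± 0.23 (adjusted p = 0.556, edgeR), not called.

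The NR4A receptors are immediate early genes, induced without a ligand by many stimuli. *Nr4a2* (NURR1) was the only receptor called in all 3 comparisons with opposite directions against the WT. *Nr4a2* had 4.63, 4.86, 5.22 and 5.36 CPM in the KO, 1.83, 2.62 and 2.8 in the WT and 1.43, 1.08, 1.05 and 1.28 in the KI libraries. The 3 groups did not overlap, with KI under WT and WT under KO libraries. KO against KI was 2.01 ± 0.21 (adjusted p = 1.49e-06, edgeR) and KO against WT was 1.01 ± 0.23 (adjusted p = 0.00345, edgeR). The KI call against the WT, -0.97 ± 0.33 (adjusted p = 0.031, edgeR), was weaker, since it was lost with library totals (-0.67, adjusted p = 0.129, edgeR) and without WT 7 (-0.91, adjusted p = 0.0904, edgeR), WT 8 (-0.85, adjusted p = 0.0817, edgeR), KI 6 (-0.92, adjusted p = 0.069, edgeR) or KI 7 (-0.91, adjusted p = 0.0752, edgeR). *Nr4a1* (NUR77) showed another order. *Nr4a1* had 3.67, 3.26, 2.01 and 2.9 CPM in the KO, 2.76, 3.55 and 3.05 in the WT and 5.68, 7.2, 5.88 and 5.05 in the KI libraries. All KI libraries were above all others, with 0.92 ± 0.22 (adjusted p = 0.00588, edgeR) against the WT and -0.99 ± 0.21 (adjusted p = 0.000881, edgeR) in KO against KI. KO against WT was -0.10 ± 0.27 (adjusted p = 0.782, edgeR), not called. *Nr4a3* had no counts.

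The testicular receptors *Nr2c1* (TR2) and *Nr2c2* (TR4), orphan receptors that bind direct repeats, were not called in any comparison. *Nr2c1* had between 8.64 and 15.4 CPM, with 0.31 ± 0.16 (adjusted p = 0.119, edgeR) in KO against WT, 0.27 ± 0.21 (adjusted p = 0.319, edgeR) in KI against WT and 0.07 ± 0.16 (adjusted p = 0.746, edgeR) in KO against KI. *Nr2c2* had between 23.9 and 48.6 CPM, with 0.41 ± 0.18 (adjusted p = 0.0742, edgeR), 0.22 ± 0.20 (adjusted p = 0.394, edgeR) and 0.22 ± 0.15 (adjusted p = 0.25, edgeR) in the same order. Without WT 8, both were called higher in the KO cells (0.47 for *Nr2c1*, adjusted p = 0.0245, and 0.57 for *Nr2c2*, adjusted p = 0.0152, edgeR). *Nr2c2* was also called in KO against WT without KO 5 (0.50, adjusted p = 0.0434, edgeR) and in KO against KI without KI 8 (0.36, adjusted p = 0.0409, edgeR). *Nr2c2ap*, which encodes a protein that binds TR4, had its highest mean in the KI cells. *Nr2c2ap* had 19.6, 16.6, 17.3 and 12.9 CPM in the KO, 21.4, 16.3 and 10.6 in the WT and 22.7, 25.9, 19.9 and 27.8 in the KI libraries. The WT and KI groups overlapped, and 82.4% of its exon length lies opposite exons of *Rfxank*. It was called higher in KI than in WT cells, with 0.58 ± 0.22 (adjusted p = 0.045, edgeR), a call lost in 5 of 7 fits without 1 library (WT 7, WT 8, KI 5, KI 6 and KI 8), with 0.35 without WT 8 (adjusted p = 0.107, edgeR), and lower in KO than in KI cells, with -0.53 ± 0.14 (adjusted p = 0.00463, edgeR). KO against WT was 0.03 ± 0.23 (adjusted p = 0.925, edgeR).

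Of the receptors outside the name rule, *Hnf4a*, the receptor that maintains hepatocyte identity, had 266, 266, 276 and 293 CPM in the KO, 82, 103 and 135 in the WT and 137, 121, 139 and 133 in the KI libraries. The KO libraries were above all others, with 1.35 ± 0.17 (adjusted p = 6.3e-05, edgeR) against the WT and 1.06 ± 0.08 (adjusted p = 4.53e-08, edgeR) against the KI cells, and KI against WT was 0.31 ± 0.16 (adjusted p = 0.142, edgeR), not called. *Nr1i2* (PXR), a receptor of drugs and other foreign compounds that was added after its values were seen, had 22.6, 15.7, 18.2 and 15 CPM in the KO, 28.1, 20.1 and 19.6 in the WT and 3.08, 1.93, 4.08 and 4.71 in the KI libraries. All KI libraries were under all others, with -2.69 ± 0.26 (adjusted p = 8.62e-06, edgeR) against the WT and 2.36 ± 0.23 (adjusted p = 5.18e-07, edgeR) in KO against KI, and KO against WT was -0.36 ± 0.18 (adjusted p = 0.124, edgeR), not called. *Pgr* had 0 counts in all libraries, *Nr1i3* (CAR) at most 9 and *Hnf4g* at most 15.

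Nuclear receptors act through cofactors. Of 23 coactivator genes, 10 were called higher and 1 lower in the KO cells against the WT, with a median log2 fold change of 0.37, beside 26.7% and 28.4% of all genes. Those with the largest changes were *Ncoa3*, a coactivator that binds liganded receptors (1.59 ± 0.24, adjusted p = 0.000278, edgeR), and *Crebbp*, a histone acetyltransferase (1.29 ± 0.24, adjusted p = 0.00106, edgeR). Both were also higher in KO than in KI cells, with 1.37 ± 0.15 (adjusted p = 1.81e-06, edgeR) and 1.38 ± 0.17 (adjusted p = 6.68e-06, edgeR). In KI against WT, 6 were called higher and 1 lower (all genes 21.2% and 21%), among them *Med14*, the Mediator scaffold (1.24 ± 0.20, adjusted p = 0.000373, edgeR), and *Pprc1*, a relative of PGC-1α (1.15 ± 0.16, adjusted p = 0.000155, edgeR), which was also higher in the KO cells (1.23 ± 0.21, adjusted p = 0.000548, edgeR). Without WT 8, 14 coactivator genes were called higher in the KO and 9 in the KI cells, and with library totals 15 and 8. KO against KI gave 8 higher and 4 lower (all genes 27% each). *Ppargc1a*, which encodes PGC-1α, was among the 4, with -0.64 ± 0.16 (adjusted p = 0.00303, edgeR).

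Of 18 corepressor genes, 3 were called higher and 4 lower in KO against WT, 4 and 3 in KI against WT, and 6 and 6 in KO against KI. The shares of all genes called, in the same order, were 26.7% higher and 28.4% lower, 21.2% and 21%, and 27% and 27%. *Hr*, which encodes the corepressor hairless of the thyroid hormone and vitamin D receptors, was higher in the KO cells (1.44 ± 0.24, adjusted p = 0.000437, edgeR), and *Lcorl* was lower in the KO (-1.42 ± 0.16, adjusted p = 3.12e-05, edgeR) and KI cells (-0.91 ± 0.18, adjusted p = 0.0014, edgeR). *Nrip1* (RIP140), a ligand-dependent corepressor, was lower in KI cells (-1.04 ± 0.21, adjusted p = 0.00165, edgeR) and in KO cells (-0.59 ± 0.19, adjusted p = 0.0223, edgeR). Of 15 genes for chaperones of the steroid receptors, 3 were called higher and 3 lower in KO against WT, 3 and 0 in KI against WT, and 3 and 4 in KO against KI. The first 2 counts depended on the scaling, with 9 higher and 1 lower and 7 higher and 0 lower with library totals. For the 0 lower in KI against WT, the number was also 0 at an unadjusted p under 0.05 and with DESeq2. *Ppp5c*, a receptor-bound phosphatase, was higher in the KO (1.67 ± 0.13, adjusted p = 3.45e-06, edgeR) and KI cells (0.63 ± 0.14, adjusted p = 0.00401, edgeR), and *Hsp90aa1*, an inducible HSP90, was lower in the KO cells (-1.21 ± 0.19, adjusted p = 0.000295, edgeR).

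The genes for the uptake and metabolism of retinoids are those that supply the ligand of the RAR receptors. Of the 16 tested, 4 were called higher and 8 lower in the KO cells against the WT (median -0.38), 1 higher and 7 lower in the KI cells (median -0.56), and 6 higher and 5 lower in KO against KI, beside 26.7% and 28.4%, 21.2% and 21%, and 27% and 27% of all genes. With library totals, the first 2 were 6 and 6 and 3 and 5. *Stra6*, the membrane receptor for retinol uptake, had 0 counts in all KO libraries, 32.5, 37 and 57.6 CPM in the WT and 21.8, 22.5, 22.9 and 24.6 CPM in the KI libraries. No groups overlapped, and with the floor of 3 counts per library it was at least 510-fold lower than in the WT cells (adjusted p = 5.3e-07, edgeR) and at least 277-fold lower than in the KI cells (adjusted p = 2.74e-11, edgeR). The KI cells were below the WT, with -0.88 ± 0.18 (adjusted p = 0.00212, edgeR). *Dhrs3*, a retinaldehyde reductase induced by retinoic acid, had 16.9, 18.2, 21.2 and 16.2 CPM in the KO, 54.3, 45.8 and 59.1 in the WT and 49.8, 45.8, 54.4 and 51.6 in the KI libraries. KO against WT was -1.56 ± 0.14 (adjusted p = 7.57e-06, edgeR) and KO against KI was -1.47 ± 0.11 (adjusted p = 2.51e-08, edgeR), while KI against WT was -0.07 ± 0.13 (adjusted p = 0.69, edgeR), not called. Retinaldehyde dehydrogenase *Aldh1a1*, which makes retinoic acid, was lower in KO (-1.13 ± 0.17, adjusted p = 0.00024, edgeR) and KI cells (-1.20 ± 0.16, adjusted p = 0.000103, edgeR), and *Bco1*, which cleaves carotene into retinal, was higher in the KO cells (2.24 ± 0.32, adjusted p = 0.000186, edgeR) and not called in the KI cells (0.20 ± 0.37, adjusted p = 0.699, edgeR).

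Of 11 tested targets of the retinoic acid receptors, a list that holds *Rarb* itself and shares *Stra6* and *Dhrs3* with the former, 1 was called higher and 5 lower in the KO cells (all genes 26.7% and 28.4%), 2 and 3 in the KI cells (21.2% and 21%), and 2 and 4 in KO against KI (27% each). With library totals, the first 2 were 3 and 4 and 2 and 1. *Hoxb4*, a homeobox gene, had 0 counts in all KO libraries, 3.34, 4.36 and 4.82 CPM in the WT and 3.5, 4.25, 3.11 and 4.32 CPM in the KI libraries. It was at least 50.3-fold lower than in WT cells (adjusted p = 1.17e-05, edgeR) and at least 45.7-fold lower than in KI cells (adjusted p = 6.46e-08, edgeR), and KI against WT was -0.14 ± 0.24 (adjusted p = 0.662, edgeR), not called. *Rarb* and *Stra6* of this list also lacked counts in the KO cells, as did *Nr2f1* and *Dio3* outside it. The share of all genes that lacked counts in the KO cells alone was not computed. *Meis1* and *Meis2*, homeobox cofactors, were called in KI against WT alone, with 0.75 ± 0.27 (adjusted p = 0.0403, edgeR) and -0.58 ± 0.18 (adjusted p = 0.0221, edgeR).

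Of 13 tested genes for enzymes and transporters of the other ligands, 3 were called higher and 6 lower in KO against WT (all genes 26.7% and 28.4%), and 4 and 4 in KO against KI (27% each). In KI against WT, 3 of 14 were called higher and 4 lower (21.2% and 21%). Genes of thyroid hormone transport and inactivation were among them. *Slc16a10* (MCT10), a transporter of thyroid hormone and of aromatic amino acids, was higher in the KO cells, with 2.62 ± 0.16 (adjusted p = 4.52e-07, edgeR) against the WT and 2.50 ± 0.12 (adjusted p = 1.97e-10, edgeR) against the KI cells. *Dio3*, which inactivates thyroid hormone, had 0 counts in the KO libraries, 2.05, 0.686 and 1.91 CPM in the WT and 3.19, 3.17, 4 and 4.38 CPM in the KI libraries, and was at least 18.7-fold lower in KO than in WT cells (adjusted p = 0.000282, edgeR) and at least 44.4-fold lower than in KI cells (adjusted p = 7.73e-08, edgeR). It was higher in KI than in WT cells, with 1.22 ± 0.35 (adjusted p = 0.0135, edgeR). *Hsd11b1*, which regenerates active glucocorticoid, was lower in KO (-2.45 ± 0.44, adjusted p = 0.000811, edgeR) and KI cells (-3.98 ± 0.42, adjusted p = 1.67e-05, edgeR), as was *Ch25h*, which makes the oxysterol 25-hydroxycholesterol (-3.32 ± 0.50, adjusted p = 0.000253, edgeR and -3.72 ± 0.33, adjusted p = 5.21e-06, edgeR). Both had few and uneven counts there. *Hsd11b1* had 87, 13, 53 and 47 counts in the KO and 8, 33, 9 and 11 in the KI libraries. For *Ch25h* these were 31, 2, 12 and 22, and 16, 14, 8 and 8.

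Of 16 tested targets of the LXR receptors, 10 were called higher and 2 lower in KO against WT (median 0.55), whereas in KI against WT 2 of 14 were called higher and 7 lower (median -0.71), and in KO against KI 11 of 15 were higher and 2 lower (median 0.95). Of all genes, 26.7% were higher and 28.4% lower in the first (median -0.03), 21.2% and 21% in the second (median -0.02) and 27% each in the third (median 0.00). The list holds *Nr1h3* itself. Library totals gave 10 and 2, 2 and 6, and 11 and 0. *Abca1*, the cholesterol exporter, had 26.3, 28.2, 29.8 and 38.4 CPM in the KO, 7.67, 8.92 and 10.1 in the WT and 2.18, 1.35, 1.62 and 2.22 in the KI libraries, with no overlap, and KO against WT was 1.76 ± 0.18 (adjusted p = 1.6e-05, edgeR) and KI against WT -2.23 ± 0.24 (adjusted p = 1.77e-05, edgeR). *Apoc1*, an apolipoprotein, had 31.4, 24.8, 29.9 and 20.5 CPM in the KO, 6.2, 4.64 and 3.68 in the WT and 0.0839, 0.138, 0.235 and 0.182 in the KI libraries, and KO against KI was 6.95 ± 0.23 (adjusted p = 9.24e-12, edgeR). *Scd1*, a fatty acid desaturase, was higher in KO (1.06 ± 0.15, adjusted p = 0.000131, edgeR) and lower in KI cells (-0.81 ± 0.14, adjusted p = 0.000679, edgeR). *Apoe*, the apolipoprotein next to *Apoc1*, was lower in both (-1.34 ± 0.17, adjusted p = 7.24e-05, edgeR and -1.87 ± 0.16, adjusted p = 4.33e-06, edgeR), as was *Smpdl3a*, a phosphodiesterase (-1.40 ± 0.25, adjusted p = 0.000732, edgeR and -1.35 ± 0.22, adjusted p = 0.000414, edgeR).

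Of 19 tested targets of the glucocorticoid receptor, 15 were called higher and 1 lower in KO against KI (median 0.80, all genes 27% each), 6 and 3 in KO against WT (median 0.14, all genes 26.7% and 28.4%), and 0 and 12 in KI against WT (median -0.53, all genes 21.2% and 21%). For the count of 0 higher, edgeR gave 1 at an unadjusted p under 0.05 and DESeq2 called 0. With library totals, the counts against the WT were 10 and 2 for the KO and 1 and 6 for the KI cells. *Dusp1*, a MAP kinase phosphatase, had 157, 144, 155 and 149 CPM in the KO, 64.5, 71.6 and 51.6 in the WT and 20.3, 22.1, 24.6 and 24.6 in the KI libraries. No groups overlapped, and KO against KI was 2.72 ± 0.09 (adjusted p = 1.15e-11, edgeR), KO against WT 1.25 ± 0.14 (adjusted p = 3.05e-05, edgeR) and KI against WT -1.45 ± 0.15 (adjusted p = 1.64e-05, edgeR). *Fkbp5*, the receptor's own feedback cochaperone, which is also on the list of chaperones, was higher in the KO cells (0.73 ± 0.16, adjusted p = 0.00283, edgeR) and was -0.13 ± 0.16 (adjusted p = 0.546, edgeR) in KI against WT, not called. *Lcn2* (lipocalin 2) was lower in KO (-1.28 ± 0.16, adjusted p = 8.78e-05, edgeR) and KI cells (-1.70 ± 0.17, adjusted p = 1.22e-05, edgeR). The 1 target lower in KO than in KI cells was *Angptl4* (-1.58 ± 0.10, adjusted p = 3.74e-09, edgeR), an inhibitor of lipoprotein lipase that is also a PPAR target. It was lower than in the WT in both KO (-2.02 ± 0.15, adjusted p = 1.71e-06, edgeR) and KI cells (-0.42 ± 0.14, adjusted p = 0.0266, edgeR).

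Of 31 tested PPAR targets, 6 were called higher and 14 lower in KO against WT (median -0.34), 0 and 16 of 30 in KI against WT (median -0.48), and 13 and 10 in KO against KI (median 0.08), beside 26.7% and 28.4%, 21.2% and 21%, and 27% and 27% of all genes. For the 0 called higher by edgeR, the number at an unadjusted p under 0.05 was 0 and DESeq2 called 1. Library totals gave 9 and 9 for the first and 2 and 10 for the second. *Cd36*, a fatty acid transporter, had 6.39, 3.97, 5.49 and 4.97 CPM in the KO, 129, 141 and 72.1 in the WT and 7.75, 8.46, 7.32 and 9.88 in the KI libraries. KO against WT was -4.46 ± 0.25 (adjusted p = 3.01e-07, edgeR) and KI against WT -3.77 ± 0.22 (adjusted p = 1.95e-07, edgeR), while KO against KI was -0.67 ± 0.17 (adjusted p = 0.00364, edgeR). The lipid droplet proteins parted: *Plin5* was lower in the KI cells (-4.68 ± 0.31, adjusted p = 4.95e-07, edgeR) and not called in the KO cells (-0.43 ± 0.23, adjusted p = 0.128, edgeR), and *Plin4* was higher in the KO (2.17 ± 0.20, adjusted p = 1.02e-05, edgeR) and lower in the KI cells (-0.82 ± 0.21, adjusted p = 0.00729, edgeR).

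Of the genes of bile acid control by FXR and SHP, 5 of 16 were tested in KO against WT, with 1 called higher and 2 lower, 6 in KI against WT, with 0 called by edgeR, and 5 in KO against KI, with 2 higher and 2 lower. Of all genes, 26.7% and 28.4%, 21.2% and 21%, and 27% and 27% were called higher and lower in these comparisons. In KI against WT, edgeR gave 0 higher and 1 lower at an unadjusted p under 0.05, DESeq2 called 1 lower, and 2 were called lower without WT 8. *Fgfr4*, the receptor for the intestinal bile acid signal, was lower in the KO cells (-1.96 ± 0.22, adjusted p = 3.96e-05, edgeR). Of 14 tested targets of the drug receptors CAR and PXR, 5 were called higher and 5 lower in KO against WT, 3 and 5 in KI against WT, and of 13 in KO against KI, 5 and 4, where all genes gave 26.7% and 28.4%, 21.2% and 21%, and 27% and 27%. The drug exporters *Abcb1b* (4.94 ± 0.39, adjusted p = 3.19e-06, edgeR) and *Abcb1a* (2.27 ± 0.20, adjusted p = 6.1e-06, edgeR) were higher in the KO cells, and *Abcb1a* also in the KI cells (1.40 ± 0.26, adjusted p = 0.00108, edgeR), whereas *Gsta1*, a glutathione transferase, was lower in KO (-1.77 ± 0.25, adjusted p = 0.00014, edgeR) and KI cells (-1.27 ± 0.18, adjusted p = 0.000179, edgeR). The WT libraries held only 4, 24 and 8 counts of *Abcb1b*.

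Of 15 tested clock genes of the REV-ERB and ROR loop, 6 were called higher and 0 lower in KO against WT (median 0.14), 4 and 4 in KI against WT and 8 and 3 in KO against KI, beside 26.7% and 28.4%, 21.2% and 21%, and 27% and 27% of all genes. For the 0 lower in KO against WT, the number was also 0 at an unadjusted p under 0.05 and with DESeq2. With library totals, KI against WT gave 6 and 1. *Arntl* (BMAL1), which REV-ERB receptors repress and ROR receptors activate, had 54.1, 57.3, 51.8 and 58.9 CPM in the KO, 12.6, 12.6 and 15.8 in the WT and 19.7, 20.6, 23.6 and 17 in the KI libraries. It was higher in the KO cells, with 2.00 ± 0.14 (adjusted p = 1.28e-06, edgeR) against the WT and 1.46 ± 0.11 (adjusted p = 2.97e-08, edgeR) against the KI cells, and KI against WT was 0.56 ± 0.17 (adjusted p = 0.0155, edgeR). *Cry1*, a clock repressor, was higher in KO (1.13 ± 0.20, adjusted p = 0.000707, edgeR) and KI cells (0.90 ± 0.18, adjusted p = 0.00186, edgeR). *Tef*, a clock-controlled factor, was higher in KO (0.69 ± 0.17, adjusted p = 0.00463, edgeR) and lower in KI cells (-0.99 ± 0.18, adjusted p = 0.000869, edgeR). The time of day of harvest is not given in the sources used here, and its part in the result was not tested.

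**Figure D4:**
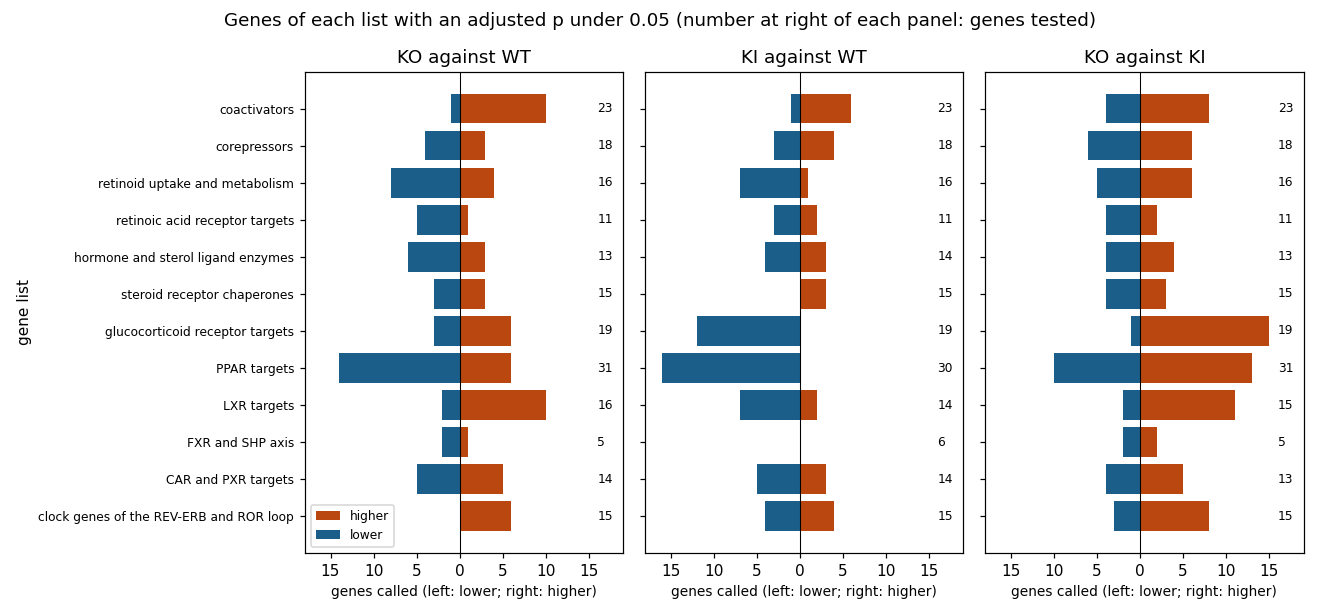
Number of genes called higher (orange, right) and lower (blue, left) in each list, for KO against WT, KI against WT and KO against KI, with the number tested at the right of each panel. Targets of the glucocorticoid receptor and LXR were mostly higher in KO than in KI cells, 15 of 19 and 11 of 15, where 27% of all genes were.

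Markers of cell types were summed in the same libraries. Of all genes, 26.7% were called higher and 28.4% lower in KO against WT, 21.2% and 21% in KI against WT, and 27% each in KO against KI. Of 16 hepatocyte markers, 14 reached 10 counts, and *Cyp2e1*, which defines mature hepatocytes, was at 0 in all libraries. Their summed level was 5150 to 6280 CPM in the KO, 1580 to 2280 in the WT and 1630 to 2230 in the KI libraries, but of the 14 tested in KO against WT, 8 were called higher and 5 lower. Of 12 tested in KI against WT, 3 were called higher and 5 lower, and of 12 in KO against KI, 8 and 4. Of 8 markers of bile duct cells, 6 reached 10 counts, with 1370 to 1530 CPM in the KO, 3050 to 4420 in the WT and 2640 to 3130 in the KI libraries, *Epcam* was among those at 0, and of 5 tested in KO against WT, 1 was called higher and 4 lower. Of 5 tested in each of the other comparisons, 1 was called lower in KI against WT, and 1 higher and 3 lower in KO against KI. Of 10 fibroblast or stellate cell markers, 5 reached 10 counts (KO 1170 to 1280, WT 690 to 897 and KI 690 to 796 CPM), with *Col1a2*, *Col3a1* and *Lrat* at 0. Only 2 of the 10 were tested in KO against WT, and 1 of them was called higher, so this sum rests on few genes. Endothelial markers summed to at most 0.425 CPM. Of 7 macrophage markers, 4 reached 10 counts (KO 377 to 465, WT 481 to 669 and KI 375 to 423 CPM), with *Adgre1* and *Clec4f* at 0. Of 4 tested, 3 were called lower in KO against WT, 2 in KI against WT and 1 in KO against KI. The hepatocyte and fibroblast sums were thus higher and the bile duct sum lower in the KO than in all other libraries, and the macrophage sum was lower in the KO than in the WT libraries and overlapped with that of the KI libraries. The part of these in the receptor results was not tested.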

How the data were processed

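Polyadenylated RNA of AML12 cells was sequenced in 11 libraries, 4 KO, 3 WT and 4 KI. The authors deposited 1 table of counts per gene, not normalized, made by their sequencing provider after cleaning and mapping. The submitters' processing notes name HISAT2, TopHat2, Bowtie2 and StringTie, without versions. The genome build, the annotation and the strand setting are not given in the sources used here. The table has 26472 lines, of which 10 with broken fields were left out. Entries that share a name, which concerned 1131 names, were summed, and 2960 newly assembled entries were kept, which gave 24849 genes. Another 11 columns of FPKM, whose decimal points were lost, and 9 columns with the results of the authors' own DESeq2 comparisons (fold changes, adjusted p-values and direction) were not used here.

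Genes were filtered by edgeR's filterByExpr, scaled by TMM and compared by the quasi-likelihood test of edgeR (edgeR 4.0.16, limma 3.58.1 and R 4.3.3), using robust dispersions and a prior count of 2, each comparison with the libraries of its 2 groups. Genes were called at a Benjamini-Hochberg adjusted p-value under 0.05. Standard errors are the absolute log2 fold change divided by the square root of the test statistic. Levels are TMM-scaled CPM over all 11 libraries. Folds against a group without counts were computed against 3 counts per library, a floor that covers counting error only and corresponds to at most 1.01e-05% of a library. Exon lengths, overlaps and chromosomes were taken by gene name from a GENCODE mouse annotation. Medians of the tested genes of a chromosome are printed for some receptor genes only. In KO against WT the median was -0.36 for *Nr1d2*, which leaves 0.02 for this gene relative to it. It was 0.27 for *Nr1h3* and *Rxra* and -0.34 for *Nr1d1*. In KO against KI it was 0.39 for *Nr1h3* and *Rxra*. The part of these in the results was not tested. All pairs of libraries of a group differed by more than counting noise. The test was tested on simulated data for each comparison. Tables and plots were made with Python 3.11.15, pandas 2.3.3 and matplotlib 3.10.9, and DESeq2 1.42.0 was among the alternatives.

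The counts cover every gene of the name rule, 1 of which and a few genes of the lists are not reported here by name, and those called in at least 1 comparison are given with the level in every library. From each list, genes were named among the 4 with the largest absolute fold change per comparison, of those called without overlap of the groups and with a mean log2 CPM of at least 1. Which of these to print was decided with their values in view, as was the choice of *Nr1i2* and *Nr1i3*, and not every comparison of each is printed. The members, the lists and the tests were chosen with earlier results of these data known. Alternatives were DESeq2 size factors, library totals, 2 other filters, DESeq2, all libraries in 1 fit, a replicate block and each library left out. List counts with library totals and without WT 8 were added after the data were seen. Replicate numbers were not used as pairs, since correlations of same-numbered libraries ranged from -0.38 to 0.5.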

Additional observations from a re-analysis of the deposited data

Results flagged for a closer look

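In 4 of 66 groups of 4 libraries tested with Dixon's ratio of gap to range, 1 library lay far from the other 3, where chance gives about 1 in 20, or 3.3 groups. *Nr1h2* had 64 CPM in KI 5 and 76.1 to 78 CPM in the other KI libraries (ratio 0.862). *Nr1h3* had 27.4 CPM in KI 8 against 17 to 18.1 CPM (ratio 0.887). *Nr5a2* had 1.15 CPM in KI 5 against 0.601 to 0.662 CPM (ratio 0.889). *Vdr* had 3.06 CPM in KO 5 against 4.89 to 4.99 CPM (ratio 0.947). The 3 WT libraries are too few for this test.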

How the results depend on the processing

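In KO against KI, the counts of receptor genes called were within 1.5 times the reported ones in every alternative run. Against the WT, with library totals, the receptor genes called higher numbered 13 in the KO and 6 in the KI cells, and those called lower in the KI cells numbered 5. Of all genes called with this scaling, 72.8% in the KO and 76.3% in the KI cells were higher. The sign then changed in KO against WT for *Nr1d2* (0.08), *Nr3c1* (0.10), *Nr3c2* (0.18), *Nr4a1* (0.30) and *Pparg* (0.20), and in KI against WT for *Nr1h3* (0.09), *Nr1h4* (0.03), *Nr3c2* (0.20), *Ppard* (0.27), *Rxrb* (0.27), *Thra* (0.18) and *Vdr* (0.05). Of these only *Nr3c1* had been called. Some genes reported as not called were called higher with library totals. In KO against WT, they included *Nr1h2* (0.66), *Nr2c1* (0.71), *Nr2c2* (0.81), *Nr2f6* (0.45), *Rara* (0.69), *Rxrb* (0.44) and *Vdr* (1.01). In KI against WT, they included *Nr2f2* (0.64), *Nr2f6* (0.51) and *Rorb* (0.90). Values near 0 changed sign with DESeq2 size factors (*Nr2f6* -0.0053 and *Rxrb* -0.0077 in KO against WT, *Nr1h2* -0.02 in KI against WT) and with DESeq2 (-0.0027, -0.0051 and -0.02 in the same order). With DESeq2 size factors, *Nr1d2* was called in KO against WT (-0.36), and *Nr2c2ap* was not in KI against WT (0.56). DESeq2 called *Esrra* in KI against WT (-0.38). Without the low-count filter, *Nr3c1* (-0.29 in KO, -0.37 in KI against WT) and *Nr6a1* (-0.62 in KO against WT) were not called. A fit of all libraries called *Esrra* in KI against WT (-0.36), *Nr1h2* in KO against WT (0.27) and *Nr5a2* in KO against KI (0.78).

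With the replicate block, 9 receptor genes were called higher in KO against WT, and 8 were called in KI against WT, 6 of them lower, while KO against KI kept a count of 22. The calls lost in KI against WT were *Esrrb* (-1.56), *Nr2c2ap* (0.56), *Nr3c1* (-0.36), *Nr4a2* (-0.93) and *Nr6a1* (-0.69). In KO against WT, the call of *Nr6a1* was lost (-0.57), and *Nr2c2* (0.49), *Rara* (0.35), *Rxra* (0.37) and *Vdr* (0.83) were called. The sign changed for *Nr2c2ap* (-0.0071) and *Rxrb* (-0.0014) in KO against WT and for *Esr1* (-0.69) in KI against WT. The libraries share a number only, since same-numbered KO and WT libraries had correlations of 0.07 and 0.5 and KI and WT libraries -0.2 and -0.38.

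Leaving out each library in turn, the receptor genes called higher in KO against WT ranged from 4 to 12 (12 without WT 8), those called in KI against WT from 8 to 15 (8 without WT 7 and without KI 6), those lower from 6 to 10 and those higher from 2 to 5 (5 without WT 8). The following uncalled values changed sign. In KO against WT, the ranges were -0.17 to 0.31 for *Nr2c2ap*, -0.07 to 0.14 for *Rxrb*, -0.06 to 0.21 for *Nr2f6*, -0.21 to 0.05 for *Nr4a1* and -0.43 to 0.0045 for *Nr3c2*. In KI against WT, they were -0.13 to 0.81 for *Esr1*, -0.19 to 0.02 for *Rxrb*, -0.03 to 0.06 for *Nr1h2*, -0.22 to 0.10 for *Nr3c2*, -0.22 to 0.15 for *Ppard*, -0.51 to 0.17 for *Vdr* and -0.04 to 0.27 for *Nr1d1*. In KO against KI, they were -0.31 to 0.05 for *Nr3c2*, -0.01 to 0.12 for *Rara* and -0.08 to 0.18 for *Nr2c1*. The cause of these changes was not tested. Depth limits what can be said of *Esrrb*, *Esr1* and *Nr5a1*, which had few counts, of list genes with few counts in a group, and of the genes not detected.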
